A study of Mus musculus with 12 samples.

Results

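The 10 genes of RNA sensing described here were measured in cultured mouse lung cells in which the transcription factor KLF4 had been silenced. They were 10 of the 52636 rows of the expression tables, each found by its symbol: the cytosolic sensors Ddx58, Ifih1 and Dhx58, the endosomal sensor Tlr3, the kinase Eif2ak2, the adaptor Mavs, the kinase Tbk1, the cytokine Ifnb1 and the receptor subunits Ifnar1 and Ifnar2. The list follows the pathway, but it was chosen with the effect of siKlf4 in these same libraries in view. The members' siKlf4 effects, and the difference of that effect between the cell types, were thus selected on these data. The baseline comparison of the cell types shares its Scr libraries with these effects, so it is not independent of that choice. All these values are given as a description. Where members are counted as called, the share of all genes called stands beside the count and nothing is read from it.

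Bulk RNA-seq, which reads the pooled RNA of a culture, covered 12 libraries in 4 groups of 3. Airway SMCs (a commercial C57BL/6 smooth muscle culture, described as tracheal in one label and as airway in another) received a scrambled control RNA (Scr) or siKlf4, a small interfering RNA against Klf4. Lung PDGFR-β+ cells, labelled as C57BL/6 and from mice 12 weeks old, also received Scr or siKlf4. The labels give the siKlf4 libraries the genotype Klf4 KD and the Scr libraries WT. The study's methods describe the PDGFR-β+ cells as sorted for the Zs fluorescent protein from mice given tamoxifen. These mice carry Pdgfrb-CreERT2 and a ROSA26R(Zs/+) reporter, so the reporter marks whichever cells used the Pdgfrb promoter at that time. The methods name alternative transfection reagents and alternative siRNA suppliers, without saying which cell type received which. Any difference in the transfected RNA or reagent cannot be told apart from cell type. No group was left without transfected RNA: Scr and siKlf4 are both introduced RNA, so a level in Scr libraries is a level after transfection. The study describes the libraries of a group as independent experiments, without saying whether each was a separate culture or animal, and the p-values measure the spread between these libraries.

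Cells detect foreign or misplaced RNA in more than one compartment. In the cytosol, RIG-I (Ddx58) and MDA5 (Ifih1) bind double-stranded RNA and signal through MAVS on mitochondria, and LGP2 (Dhx58), which lacks the signalling domain of the other two, tunes them. In endosomes TLR3 binds double-stranded RNA and signals through TRIF (Ticam1). Both routes reach the kinase TBK1, which activates IRF3 and the transcription of Ifnb1. Secreted interferon-β then acts on IFNAR1 and IFNAR2, and a complex that holds STAT2 and IRF9 switches on interferon-stimulated genes. Several sensors, and PKR (Eif2ak2), which halts translation when it binds double-stranded RNA, are themselves interferon-stimulated, so the pathway can feed back on its own sensors.

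The promoters of 6 members are shown, 5 that were higher after siKlf4 in PDGFR-β+ cells and Mavs, which was not. RefSeq promoters (build GRCm38.p6, from 250 bases before the start to 50 after it, 5′ to 3′ on the gene's strand) were found for 9 of the 10 members, all but Dhx58. Capitals mark matches on either strand to the core of the interferon-stimulated response element (GAAANNGAAA), to the shorter piece of it that IRF proteins bind (AANNGAAA), and to an NF-kB site (GGGANNTTCC). Matches to the first 2 motifs can overlap. The windows are chr4:40239776-40240075 for Ddx58, chr2:62646206-62646505 for Ifih1, chr17:78882523-78882822 for Eif2ak2, chr8:45410331-45410630 for Tlr3 and chr4:88522745-88523044 for Ifnb1, all on the minus strand, and chr2:131233813-131234112 on the plus strand for Mavs.
Ddx58: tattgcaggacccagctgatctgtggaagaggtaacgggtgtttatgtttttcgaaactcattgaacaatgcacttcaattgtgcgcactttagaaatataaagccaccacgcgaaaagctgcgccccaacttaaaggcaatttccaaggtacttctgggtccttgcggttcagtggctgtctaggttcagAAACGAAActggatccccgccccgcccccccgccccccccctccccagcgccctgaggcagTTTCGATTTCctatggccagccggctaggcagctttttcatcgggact
Ifih1: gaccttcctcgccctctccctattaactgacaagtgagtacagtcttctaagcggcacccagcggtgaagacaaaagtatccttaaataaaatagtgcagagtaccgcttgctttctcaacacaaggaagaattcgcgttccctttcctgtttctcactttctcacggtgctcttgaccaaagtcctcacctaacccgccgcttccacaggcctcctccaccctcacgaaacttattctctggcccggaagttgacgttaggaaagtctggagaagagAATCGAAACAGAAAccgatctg
Eif2ak2: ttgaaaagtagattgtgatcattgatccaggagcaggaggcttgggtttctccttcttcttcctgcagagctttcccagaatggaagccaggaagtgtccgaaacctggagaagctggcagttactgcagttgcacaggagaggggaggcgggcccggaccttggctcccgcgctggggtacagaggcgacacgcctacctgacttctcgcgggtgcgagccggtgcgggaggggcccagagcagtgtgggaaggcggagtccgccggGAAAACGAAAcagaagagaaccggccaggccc
Tlr3: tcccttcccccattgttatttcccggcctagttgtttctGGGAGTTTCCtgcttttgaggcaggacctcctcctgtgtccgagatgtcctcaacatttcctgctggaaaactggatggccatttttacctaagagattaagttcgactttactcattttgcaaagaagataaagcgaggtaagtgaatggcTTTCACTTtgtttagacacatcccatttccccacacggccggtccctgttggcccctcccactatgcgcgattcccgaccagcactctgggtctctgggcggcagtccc
Ifnb1: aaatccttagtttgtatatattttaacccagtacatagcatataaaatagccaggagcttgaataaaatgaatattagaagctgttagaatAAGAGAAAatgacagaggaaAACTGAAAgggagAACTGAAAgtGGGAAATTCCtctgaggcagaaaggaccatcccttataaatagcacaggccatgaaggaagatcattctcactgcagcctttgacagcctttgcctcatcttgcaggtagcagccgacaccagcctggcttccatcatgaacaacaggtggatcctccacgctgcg
Mavs: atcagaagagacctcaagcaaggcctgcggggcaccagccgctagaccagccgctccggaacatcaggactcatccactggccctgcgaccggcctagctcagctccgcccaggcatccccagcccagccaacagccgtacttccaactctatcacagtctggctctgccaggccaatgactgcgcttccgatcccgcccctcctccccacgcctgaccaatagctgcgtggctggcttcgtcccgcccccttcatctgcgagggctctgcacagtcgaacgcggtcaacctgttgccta

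With the first base of the transcript counted as 1, the response-element core began at base 3 in Ddx58, where it lies on the opposite strand, at base 33 in Ifih1 and at base 19 in Eif2ak2. Of 32817 mouse promoters of this length, 3.43% held this core. The shorter IRF piece was found in those 3 genes, in Tlr3 (1 match, at -59) and in Ifnb1 (3 matches, at -159, -139 and -126), and in 23.9% of all promoters. The Tlr3 window follows a RefSeq start that lies within the GENCODE gene, which reaches upstream to chr8:45411080. Bases around that other start were not searched, so the Tlr3 matches hold for the RefSeq start alone. An NF-kB site stood at -211 in Tlr3 and at -116 in Ifnb1, against 1.47% of all promoters. The promoters of Mavs, Tbk1, Ifnar1 and Ifnar2 held none of these 3 motifs. CACCC, the letters that KLF proteins are known to bind, was found in 6 of the 9 promoters (Ddx58, Ifih1, Eif2ak2, Tbk1, Ifnar1 and Ifnar2) and in 57.5% of all promoters. These are matches of letters, and no binding was measured.

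Expression is given as TPM, the share of a library's transcripts that a gene accounts for after correction for transcript length, scaled so that a library adds up to 1000000. Levels can therefore be compared between genes, but TPM keeps no depth. The study's methods state a target number of clusters per library, and the depth reached was not given in the sources used here. The libraries held 20590 to 21780 genes with a value above 0. Klf4 itself was at 134 to 146 TPM in the Scr and 12.3 to 13.8 TPM in the siKlf4 libraries of PDGFR-β+ cells, which left 9.16% of the mean, and at 89.6 to 96.3 and 16.3 to 26.5 TPM in those of SMCs, which left 21.9%. The 2 labels were not told apart by smooth muscle genes in the usual direction. In Scr libraries, 5 of the 8 smooth muscle markers tested were higher in PDGFR-β+ cells than in SMCs and the other 3 did not pass the test. Over all genes, 23.3% were called higher and 24.4% lower in this comparison. Acta2 stood at 3969 to 4594 TPM in Scr-treated PDGFR-β+ cells and at 1031 to 1567 TPM in Scr-treated SMCs, and Myocd was at most 0.213 TPM in every library. The markers of PDGFR-β+ mesenchymal cells divided in Scr libraries, with 3 of 7 called higher and 3 lower in PDGFR-β+ cells than in SMCs. Pdgfrb stood at 423 to 474 TPM in PDGFR-β+ cells and 213 to 216 TPM in SMCs. Cspg4 was higher in PDGFR-β+ cells by a log2 value of 2.12. Tcf21, Pdgfra and Notch3 were lower there (-2.95, -1.29 and -1.06). The cells are called by their labels here. The leukocyte markers Ptprc, Adgre1 and Itgam reached at most 0.266 TPM in every library, the leukocyte list summed to between 25.2 and 50.5 TPM, the epithelial list to at most 1.14 TPM and the endothelial list to at most 18.4 TPM, most of it Kdr. Of 4 leukocyte markers tested in Scr libraries, 3 were called higher in PDGFR-β+ cells and 1 lower. Lyz2 was at 17.3 to 20.3 TPM there and 1.45 to 2.93 TPM in SMCs. Cd68 and Csf1r were higher by 1.03 and 0.84 on the log2 scale. Csf1r averaged 0.807 TPM in SMCs and 2.28 TPM in PDGFR-β+ cells. It reached the minimum mean of 1 TPM only through the latter, so its call follows from its passing. Cd14 went the other way, at 6.63 to 7.04 TPM in PDGFR-β+ cells and 39.8 to 42.3 TPM in SMCs, where it made up most of the leukocyte sum. Several of these markers moved with siKlf4. Over all genes, 25.3% were called higher and 15.3% lower after siKlf4 in PDGFR-β+ cells, and 15.6% and 12.9% in SMCs. In SMCs 7 of the 8 smooth muscle markers tested were called higher and their sum went from between 1509 and 2299 TPM to between 3432 and 4204 TPM, while in PDGFR-β+ cells 3 were called higher and 3 lower and the sum went from between 5577 and 6428 TPM to between 4736 and 5039 TPM. Of 7 markers of PDGFR-β+ mesenchymal cells, 0 were called higher by limma (also 0 at an unadjusted p under 0.05) and 3 lower in each cell type, with the pericyte gene Cspg4 at -1.97 in PDGFR-β+ and -0.53 in SMCs on the log2 scale. The leukocyte sum went from between 46.1 and 50.5 TPM to between 25.2 and 29.9 TPM in SMCs and from between 35.6 and 37.6 TPM to between 29.5 and 33.9 TPM in PDGFR-β+ cells. Kdr was at 0.502 to 0.798 TPM after Scr and 2.69 to 3.12 TPM after siKlf4 in SMCs. The part of these shifts in the values that follow was not tested.

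The RIG-I-like receptors were higher after siKlf4 in both cell types, and by more in PDGFR-β+ cells. Ddx58 lies at chr4:40203773-40239828 on the minus strand (mm10, as are the positions that follow). In PDGFR-β+ cells Ddx58 stood at 48.9, 40.6 and 60.5 TPM in Scr libraries 1, 2 and 3 and at 222, 207 and 229 TPM in the siKlf4 libraries. Its Scr values in SMCs were 60.4, 61.9 and 69.8 TPM and its siKlf4 values 129, 126 and 122 TPM, listed with the library that has no replicate number first, then libraries 2 and 3, here and in every later list for SMCs. The groups did not overlap in either cell type, and the lowest siKlf4 value of PDGFR-β+ cells lay above the highest of SMCs. The ratio of the group means was 4.38 in PDGFR-β+ cells and 1.96 in SMCs.

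Ifih1, at chr2:62595798-62646255 on the minus strand, encodes MDA5, which prefers long double-stranded RNA. PDGFR-β+ cells had 8.02, 4.80 and 10.05 TPM of it after Scr and 95.2, 95.8 and 87.5 TPM after siKlf4. SMCs had 17.6, 15.7 and 18.3 TPM after Scr and 34.4, 37.4 and 39.6 TPM after siKlf4. The order of the cell types was thus reversed by siKlf4: every Scr-treated SMC library lay above every Scr-treated PDGFR-β+ library, and every siKlf4-treated PDGFR-β+ library above every siKlf4-treated SMC library. The means differed 12.2-fold in PDGFR-β+ cells and 2.16-fold in SMCs.

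Dhx58, at chr11:100694884-100704271 on the minus strand, had the same reversal. Its levels in PDGFR-β+ cells were 3.71, 2.72 and 6.46 TPM after Scr and 61.0, 54.3 and 52.9 TPM after siKlf4, a ratio of means of 13.1. In SMCs they were 12.4, 11.8 and 14.5 TPM after Scr and 22.1, 21.7 and 22.5 TPM after siKlf4, a ratio of means of 1.71. The annotation has an antisense transcript, Dhx58os, over this gene. The study's methods describe the libraries as strand-specific, but the strand setting of the counting is not given in the sources used here. After log2(TPM + 1) transformation, in which changes of low genes come out too small, the siKlf4 minus Scr values in PDGFR-β+ cells were 2.13 (SE 0.136) for Ddx58, 3.49 (SE 0.214) for Ifih1 and 3.49 (SE 0.233) for Dhx58, and in SMCs 0.96 (SE 0.0754), 1.07 (SE 0.0930) and 0.74 (SE 0.0965).

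**Figure D1:**
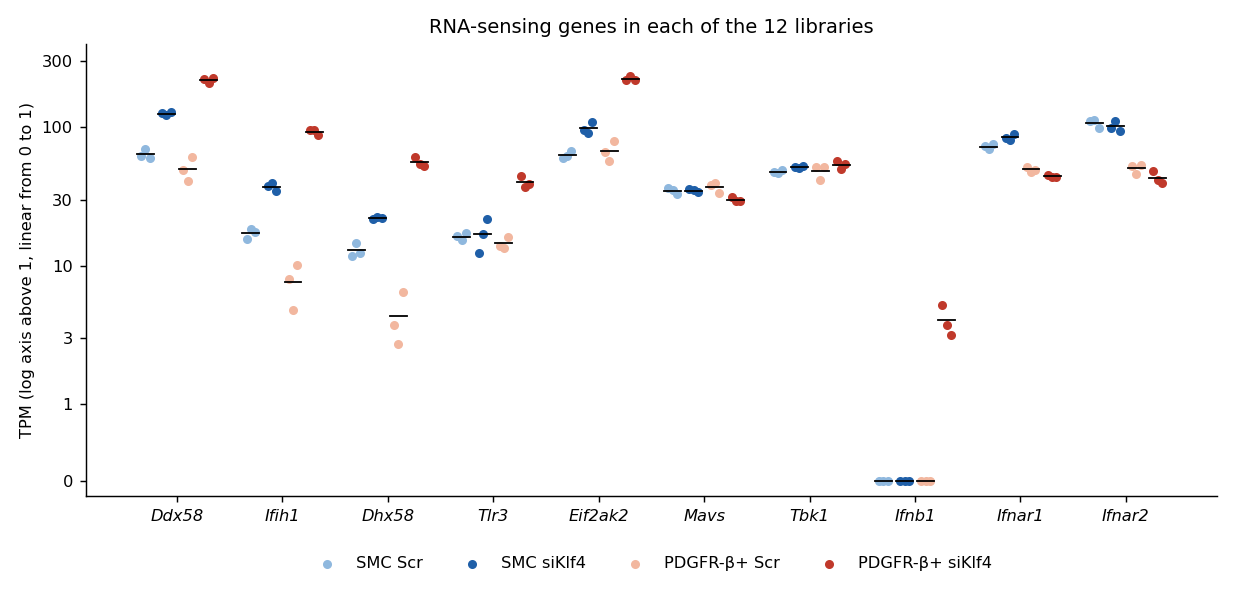
TPM of the 10 genes (x axis) in each of the 12 libraries, on a y axis that is logarithmic above 1 TPM and linear below it. Each point is a library, each bar the mean of the 3 libraries of a group. The siKlf4-treated PDGFR-β+ libraries sit highest for the 5 sensors, and Ifnb1 is at 0 in the 9 libraries of the other groups.

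The proportions of the 3 receptors differed between Scr and siKlf4 libraries, without overlap, in PDGFR-β+ cells. Their summed level was 60.6, 48.2 and 77.0 TPM in the Scr and 378, 357 and 369 TPM in the siKlf4 libraries of PDGFR-β+ cells, and 89.4 to 102.5 and 184 to 185 TPM in those of SMCs. Ddx58 made up 78.6% to 84.4% of that sum in Scr-treated PDGFR-β+ cells and 58.0% to 62.0% after siKlf4. In SMCs its share lay between 66.3% and 69.5% in all 6 libraries, with the Scr and siKlf4 ranges overlapping. The shares of Ifih1 and Dhx58 in PDGFR-β+ cells went from 9.97% to 13.2% and from 5.65% to 8.38% with Scr to 23.7% to 26.8% and 14.3% to 16.2% with siKlf4.

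**Figure D2:**
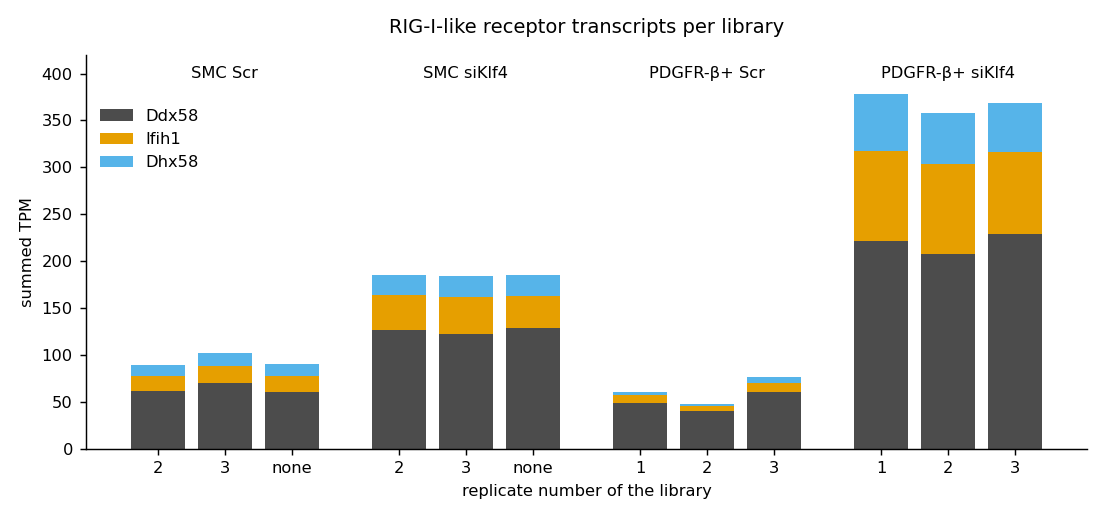
Summed TPM (y axis, linear from 0) of Ddx58, Ifih1 and Dhx58 in each library (x axis, replicate number, with none for the SMC libraries that carry no number). Bars reach 357 to 378 TPM in siKlf4-treated PDGFR-β+ cells and 184 to 185 TPM in siKlf4-treated SMCs, with a larger orange and blue share in the former.

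The sensors outside this family divided. Tlr3, the endosomal sensor of double-stranded RNA, lies at chr8:45395665-45411080 on the minus strand under an antisense gene model. The Scr libraries of PDGFR-β+ cells had 14.0, 13.4 and 16.1 TPM of it and the siKlf4 libraries 44.2, 36.9 and 39.1 TPM, a ratio of means of 2.77 and a log2 value of 1.41 (SE 0.104). In SMCs Scr gave 17.2, 16.3 and 15.3 TPM and siKlf4 21.9, 12.3 and 17.0 TPM. These ranges overlapped, the log2 value was 0.03 (SE 0.188), and its sign turned when the numbered libraries were taken alone (-0.12), so that no direction can be given for Tlr3 in SMCs. Tlr3 was the one sensor that was not called higher there.

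Eif2ak2, at chr17:78852564-78882573 on the minus strand, was higher after siKlf4 in both. PDGFR-β+ cells had 65.9, 57.1 and 79.5 TPM of it after Scr and 219, 234 and 221 TPM after siKlf4. SMCs had 67.8, 59.9 and 61.9 TPM after Scr and 109, 95.2 and 91.0 TPM after siKlf4. The groups did not overlap in either cell type, and the ratios of means were 3.33 and 1.56. Of the sensors it had the highest mean in Scr-treated PDGFR-β+ cells, 67.5 TPM, with a Scr mean of 63.2 TPM in SMCs.

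The adaptor of the RIG-I-like receptors and the kinase beyond it had smaller values than the sensors. Mavs, at chr2:131234063-131248025 on the plus strand, had 38.6, 39.9 and 33.3 TPM after Scr and 31.5, 29.1 and 29.4 TPM after siKlf4 in PDGFR-β+ cells, where the siKlf4 libraries lay below the Scr libraries. Its log2 value there was -0.30 (SE 0.0907). That call was lost when Scr library 1 or 2 or siKlf4 library 2 or 3 was left out, with log2 values of -0.27, -0.25, -0.28 and -0.29. In SMCs it lay between 32.7 and 36.1 TPM in all 6 libraries, with a log2 value of 0.01 that changed sign under median-ratio scaling (-0.0011). Tbk1, at chr10:121546455-121586787 on the minus strand, had 41.5 to 51.6 TPM after Scr and 49.6 to 57.0 TPM after siKlf4 in PDGFR-β+ cells, which overlapped, and 46.6 to 49.3 and 51.1 to 52.3 TPM in SMCs, which did not. Its log2 values were 0.16 (SE 0.106) and 0.11 (SE 0.0634), and neither passed the threshold.

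Ifnb1, the interferon-β gene at chr4:88522025-88522774 on the minus strand, was listed at 0 TPM in all 6 SMC libraries and in the 3 Scr libraries of PDGFR-β+ cells. It stood at 5.19, 3.71 and 3.16 TPM in the siKlf4 libraries of PDGFR-β+ cells. It reached the minimum mean of 1 TPM only through that group, so that its call there follows from its passing, and no fold is given against values of 0. Of 18 other type I and III interferon genes, 13 were at 0 in all 12 libraries and 17 stayed under 1 TPM. The exception, Ifna4, an interferon-α gene named here after its values were seen, stood at 1.09, 0.526 and 0.899 TPM in the siKlf4 libraries of PDGFR-β+ cells and was listed at 0 in the other 9. The interferon-α genes are near-identical copies whose reads a counter can split, so the level of any one of them is uncertain.

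The receptor subunits went with the cell type more than with siKlf4. Ifnar1, at chr16:91485238-91507441 on the plus strand, had 51.9, 47.9 and 49.1 TPM after Scr and 45.1, 43.8 and 43.5 TPM after siKlf4 in PDGFR-β+ cells. Its SMC values were 75.2, 72.9 and 69.5 TPM after Scr and 89.4, 83.6 and 80.9 TPM after siKlf4. The groups did not overlap in either cell type but lay in opposite order, with log2 values of -0.16 (SE 0.0684) and 0.22 (SE 0.0696) that did not pass the threshold. The SMC value passed with the SMC libraries paired as a replicate block (adjusted p = 0.0274). Ifnar2, at chr16:91372783-91405589 on the plus strand, where the annotation has a further gene model on the same strand, had 45.6 to 53.4 TPM after Scr and 39.6 to 48.3 TPM after siKlf4 in PDGFR-β+ cells. In SMCs its ranges were 98.9 to 112.4 and 94.3 to 110.9 TPM. The Scr and siKlf4 ranges of Ifnar2 overlapped in both.

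Counted over the list, 6 of the 10 members tested, Ifnb1 among them, were called higher after siKlf4 in PDGFR-β+ cells at an adjusted p under 0.05 (limma with Benjamini-Hochberg adjustment over all genes tested), where 25.3% of the 13694 genes tested were called higher, and 1 was called lower, where 15.3% of genes were. The siKlf4 and Scr ranges did not overlap for 8 members, against 53.8% of genes. In SMCs 4 of 9 tested members were called higher, where 15.6% of 13709 genes were, and 0 were called lower (also 0 at an unadjusted p under 0.05), where 12.9% of genes were. There 6 members did not overlap, against 47.1% of genes. The median log2 value over the 9 members other than Ifnb1 was 1.41 in PDGFR-β+ cells and 0.22 in SMCs, against medians over all genes of 0.10 and 0.02. Because the members were chosen with this contrast known, these counts describe the list and support nothing further.

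TPM fixes the total, and scaling the libraries by their median ratio moved the median gene of PDGFR-β+ cells by -0.10, from 0.0968 to -0.0032, and the share of called genes that were higher from 62.3% to 47.0%. Relative to that centre the 5 sensors stayed higher, and Mavs (-0.41), Ifnar1 (-0.27) and Ifnar2 (-0.33) were all called lower, 3 members in place of 1. In SMCs the same scaling moved the median by -0.0117.

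The difference of the siKlf4 effect between the cell types (PDGFR-β+ minus SMC, limma's interaction term over the 12 libraries) was 2.75 (SE 0.275) for Dhx58, 2.42 (SE 0.256) for Ifih1, 1.38 (SE 0.229) for Tlr3, 1.16 (SE 0.166) for Ddx58 and 1.10 (SE 0.156) for Eif2ak2 on the log2(TPM + 1) scale. All 5 sensors were called higher, of 9 members tested, where 18.5% of 13032 genes were, and Ifnar1 was called lower at -0.38 (SE 0.0894), where 14.5% of genes were. Mavs was at -0.31 (SE 0.112), Ifnar2 at -0.14 (SE 0.138) and Tbk1 at 0.04 (SE 0.124), and these did not pass, although Mavs did with the replicate block (adjusted p = 0.0395). With median-ratio scaling, the share of called genes with a higher effect in PDGFR-β+ cells went from 56.1% to 45.3%. Each cell type was deposited in a table of its own, so that cell type and table cannot be told apart in this difference or in any level set across the tables.

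**Figure D3:**
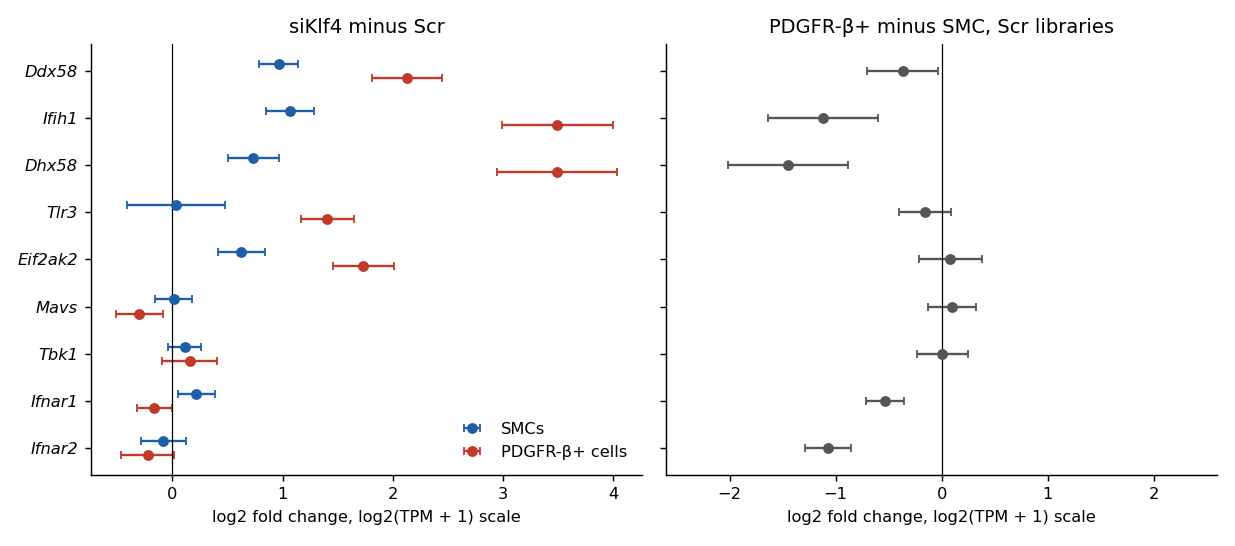
Log2 fold changes (x axes, log2(TPM + 1) scale) of the 9 members other than Ifnb1, siKlf4 minus Scr in each cell type (left) and PDGFR-β+ minus SMC among Scr libraries (right). Points are limma estimates and whiskers their 95% confidence intervals. In the left panel the 5 sensors lie further to the right in PDGFR-β+ cells than in SMCs, and in the right panel no sensor has an interval wholly above 0.

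The larger response raised the question of whether PDGFR-β+ cells held more sensor RNA to begin with. In Scr libraries the test found none that was higher: 0 of the 9 members tested were called higher in PDGFR-β+ cells than in SMCs by limma (also 0 at an unadjusted p under 0.05), where 23.3% of 13800 genes were, and 4 were called lower, where 24.4% of genes were. Ifih1 was lower by a log2 value of -1.12 (SE 0.223, adjusted p = 0.0045) and Dhx58 by -1.45 (SE 0.242, adjusted p = 0.0020). Ifnar1 was lower by -0.54 (SE 0.0769, adjusted p = 9.0e-04) and Ifnar2 by -1.07 (SE 0.0943, adjusted p = 8.3e-05). For each of these 4 the 3 Scr libraries of PDGFR-β+ cells lay below the 3 of SMCs. The members were chosen on effects that share these Scr libraries. Adjusted p-values of the baseline comparison, here and below, therefore describe selected members and are not independent support.

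The other members were not told apart at baseline, although that does not show them to be equal. Ddx58 differed by -0.37 (95% interval -0.70 to -0.03, adjusted p = 0.0687), a call that was made when Scr library 3 of PDGFR-β+ cells was left out (-0.51, adjusted p = 0.0145) and in a fit over all 12 libraries (adjusted p = 0.0202). The intervals were -0.41 to 0.09 for Tlr3, -0.21 to 0.38 for Eif2ak2, -0.13 to 0.33 for Mavs and -0.23 to 0.25 for Tbk1. Eif2ak2 and Tbk1 changed sign with 1 library left out. The Scr libraries enter both the baseline and the siKlf4 comparison, so a low Scr value lowers the first and raises the second, and the 2 sets of values are not independent.

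Summed over the 5 sensors, the level was 118.7 to 172.6 TPM in Scr-treated PDGFR-β+ cells and 165.7 to 179.7 TPM in Scr-treated SMCs, which overlapped. After siKlf4 it was 628 to 641 TPM in PDGFR-β+ cells and 292 to 316 TPM in SMCs. Among 30 interferon-stimulated genes, a list chosen with the response known, the summed level was 486 to 790.0 TPM and 5919 to 6276 TPM in PDGFR-β+ cells and 856 to 1230.0 TPM and 2199 to 2415 TPM in SMCs, for Scr and siKlf4. The baseline of that list was also lower in PDGFR-β+ cells, with 21 of 29 genes called lower, 2 higher (Cxcl10 and Ifit3, named after their values were seen) and a median log2 value of -0.98. Cmpk2, Oas1a and Oas3 reached the minimum mean of this comparison only through the SMC group, and Cxcl10 only through the PDGFR-β+ group. Any baseline call of these genes follows from their passing and is only a description. Over all genes, 24.4% were called lower and 23.3% higher.

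Within the Scr group of PDGFR-β+ cells the sensors varied together. Library 3 was the highest and library 2 the lowest for all 5 sensors. This order was shared by 19 of the 26 interferon-stimulated genes that averaged 1 TPM or more in this group, and by 14.6% of all 13503 genes with such a mean. The spread was widest for Dhx58, with a ratio of highest to lowest of 2.37 and a coefficient of variation of 45.0%, and for Ifih1, with 2.09 and 34.7%. After siKlf4 the same ratios were 1.15 and 1.10. The other members varied less in this Scr group, with coefficients of variation of 20.0% for Ddx58, 16.8% for Eif2ak2, 4.12% for Ifnar1, 8.38% for Ifnar2, 9.38% for Mavs, 9.62% for Tlr3 and 12.0% for Tbk1. In SMCs the widest spread was that of Tlr3 after siKlf4, at 28.1%.

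The order of the levels within a group also changed. In Scr-treated SMCs Ifnar2 led with a mean of 107.3 TPM, above Ifnar1 (72.6), Ddx58 (64.1) and Eif2ak2 (63.2), of which neighbours overlapped, and Dhx58 was the lowest member above 0, at 12.9 TPM. In Scr-treated PDGFR-β+ cells Eif2ak2 led with 67.5 TPM, and Ifnar2 (50.5), Ddx58 (50.01), Ifnar1 (49.6) and Tbk1 (48.2) overlapped one another in turn. After siKlf4, Eif2ak2 (224.6) and Ddx58 (219.2) overlapped at the top in PDGFR-β+ cells, followed by Ifih1 (92.8) and by Dhx58 (56.1), which overlapped Tbk1 (53.7). In SMCs Ddx58 (125.6) stood first after siKlf4, above Ifnar2 (101.4) and Eif2ak2 (98.3), which overlapped each other.

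The genes whose log2(TPM + 1) was most correlated with that of Ddx58 over the 12 libraries, of 13032 genes, were Irgm1 (Pearson's r 0.996), Apol9a (0.995), Lgals3bp (0.991), Apol9b (0.991) and Ifit1 (0.991). Apol9a and Apol9b are near-identical copies whose reads may have been split. Those most like Tlr3 were Tubgcp5 (0.986), Luc7l (0.973), Usp25 (0.972), Zbtb39 (0.970) and L3mbtl3 (0.967), and no gene was in both sets. Tubgcp5 stood at 16.4 to 17.3 TPM in Scr and 26.2 to 26.9 TPM in siKlf4 libraries of PDGFR-β+ cells, and at 15.4 to 19.4 TPM in all SMC libraries. Ddx58 correlated at 0.983 with Ifih1, 0.963 with Dhx58, 0.939 with Eif2ak2 and 0.828 with Tlr3. The 12 libraries fall into 4 groups, so these values mostly follow the differences between groups and carry no test.

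The cofactors of the RIG-I-like receptors were described next, from a list of 16 genes that was also drawn up with earlier results known. In PDGFR-β+ cells 9 of the 16 were called higher and 2 lower after siKlf4, and in SMCs 6 were called higher and 0 lower by limma (1 lower at an unadjusted p under 0.05), or 7 and 1 with the replicate block. The medians were 0.28 and 0.18. These and the counts of the lists that follow are to be read against the genes called over the whole table. After siKlf4 these were 25.3% higher and 15.3% lower in PDGFR-β+ cells and 15.6% and 12.9% in SMCs. At baseline they were 23.3% and 24.4%, and for the difference between cell types 18.5% and 14.5%. The lists that follow were also drawn up with earlier results known. Adjusted p-values for siKlf4 effects, their differences and baseline levels, in this list and those, describe selected genes and are not independent support. Ddx60, a helicase reported to assist RIG-I, rose from 0.340 to 0.876 TPM in Scr to 17.8 to 20.3 TPM in siKlf4 libraries of PDGFR-β+ cells (log2 value 3.68) and from 2.53 to 3.51 TPM to 6.31 to 7.65 TPM in SMCs (1.03, adjusted p = 0.0033). Ddx60 reached the minimum mean in PDGFR-β+ cells only through the siKlf4 group, so its call there follows from its passing. Rnf135 (Riplet), the ubiquitin ligase that activates RIG-I, rose from 7.28 to 7.51 TPM to 22.2 to 25.7 TPM in PDGFR-β+ cells (1.59, adjusted p = 2.5e-05) and stood at 8.53 to 11.8 TPM and 8.69 to 9.65 TPM in SMCs (-0.17, adjusted p = 0.37). The effect on Rnf135 differed by 1.77 between the cell types, past the threshold. That on Ddx60 differed by 2.65, given as a description because of how Ddx60 passed the minimum mean.

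Zc3hav1, the zinc-finger antiviral protein that binds viral RNA, rose in both cell types, by 1.42 in PDGFR-β+ cells and 0.50 in SMCs. So did Adar, which edits double-stranded RNA and so hides it from MDA5, by 1.31 and 0.69. Rnf125, a ligase that marks RIG-I for degradation, rose by 1.11 in PDGFR-β+ cells (2.01 to 2.19 against 4.89 to 6.28 TPM). In SMCs it stood at 10.5, 5.09 and 5.23 TPM after Scr and 5.60, 2.32 and 2.25 TPM after siKlf4, with the library that carries no number the highest of each group. It was lower within each pair, and its log2 value of -0.87 did not pass the test as fitted (adjusted p = 0.11) but passed with the replicate block (adjusted p = 0.0059). At baseline 7 of the 16 genes were lower and 2 higher in PDGFR-β+ cells, with Ddx60 lower by -1.35. In that comparison Ddx60 reached the minimum mean only through the SMC group (means of 0.587 TPM in PDGFR-β+ cells and 3.04 TPM in SMCs). Its baseline value is therefore only a description.

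Of 14 genes of the branch from MAVS to TBK1, 4 were called higher and 2 lower in PDGFR-β+ cells and 4 higher and 1 lower in SMCs, with medians of 0.16 and 0.20. In PDGFR-β+ cells these shares of the list were near those of all genes. Irf7, the interferon-inducible factor that drives interferon-α genes, rose most. It stood at 4.87, 5.08 and 8.99 TPM after Scr and at 293, 232 and 221 TPM after siKlf4 in PDGFR-β+ cells (log2 value 5.13, adjusted p = 8.5e-06). In SMCs it stood at 7.94, 25.7 and 28.9 TPM with Scr, of which the lowest is the library with no number, and at 60.6, 71.5 and 85.6 TPM with siKlf4 (1.92, adjusted p = 0.018). Irf3, which TBK1 activates, was at 37.1 to 39.5 and 40.4 to 47.4 TPM in PDGFR-β+ cells and was not called.

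Members of the kinase complexes around TBK1 went in different directions. Ikbke, the kinase closest to TBK1, rose by 0.59 (adjusted p = 0.0015) in PDGFR-β+ cells and fell by 0.61 (adjusted p = 0.0051) in SMCs, a difference of 1.20 (adjusted p = 4.2e-05). Ikbkg, which encodes NEMO, the scaffold of the NF-kB kinase complex, fell by 1.16 (adjusted p = 0.0079) in PDGFR-β+ cells, from 26.9 to 45.5 TPM to 10.2 to 17.4 TPM, and was at 26.0 to 27.4 and 21.3 to 36.0 TPM in SMCs. Chuk, a kinase of that complex, rose by 0.45 in SMCs and was at -0.24 in PDGFR-β+ cells, where it did not pass.

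The partners of the endosomal receptors went both ways. Of 8 genes tested among 10, 1 was called higher and 2 lower in PDGFR-β+ cells, and in SMCs 0 were called higher by limma (also 0 at an unadjusted p under 0.05) and 1 lower. Unc93b1, which carries endosomal Toll-like receptors to their compartment, fell by 0.86 (adjusted p = 0.0078) in PDGFR-β+ cells, from 12.4 to 16.7 TPM to 6.29 to 10.1 TPM, and stood at 43.5 to 49.8 and 40.0 to 45.6 TPM in SMCs. Cnpy3, a chaperone of these receptors, fell by 0.64 in PDGFR-β+ cells (adjusted p = 0.0026). Myd88, the adaptor of the other endosomal receptors but not of TLR3, rose by 0.79 there (adjusted p = 0.0021), and in SMCs stood at 54.6 to 58.2 and 52.9 to 55.6 TPM. Ticam1, the adaptor of TLR3, was at 19.1 to 22.7 and 21.0 to 24.4 TPM in PDGFR-β+ cells and 24.6 to 28.0 and 26.2 to 28.7 TPM in SMCs. The single-stranded RNA receptor Tlr7 was at most 2.08 TPM in any library.

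Downstream of the receptor, 5 of 11 genes tested were called higher and 1 lower after siKlf4 in each cell type. Usp18, the protease that damps signalling at IFNAR2, rose from 4.51, 4.84 and 11.1 TPM to 319, 321 and 306 TPM in PDGFR-β+ cells (log2 value 5.44, adjusted p = 1.5e-05) and from 12.6, 20.3 and 24.8 TPM to 89.1, 92.4 and 94.96 TPM in SMCs (2.26, adjusted p = 0.0012). Stat2 rose by 2.35 and 0.61 in PDGFR-β+ cells and SMCs. At baseline 6 of the 11 genes were lower and 1 higher in PDGFR-β+ cells. Socs3, an inhibitor of cytokine signalling, was among the lower genes there, by -2.67 (adjusted p = 4.2e-06).

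Sensors of DNA and the other kinases of PKR's substrate were set beside the RNA sensors. All 5 DNA-sensing genes tested were called higher in PDGFR-β+ cells, and in SMCs 2 were called higher and 1 lower, or 1 and 1 with the numbered libraries alone. Zbp1, a sensor of Z-form nucleic acid, rose by 3.96 and 1.52, and Tmem173 (STING) rose by 0.91 in PDGFR-β+ cells and was at 0.10 in SMCs, where it did not pass. Samhd1, an enzyme that depletes the building blocks of DNA, rose by 0.88 in PDGFR-β+ cells and fell by 0.53 in SMCs, and the difference of 1.41 passed the test (adjusted p = 3.5e-05). Of the other eIF2α kinases and eIF2α itself, 4 genes, 1 was called higher and 1 lower in PDGFR-β+ cells and 2 higher in SMCs. Eif2ak3 (PERK) fell by 0.37 in PDGFR-β+ cells (adjusted p = 0.014), where Eif2ak2 was 3.33-fold higher.

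The machinery that makes, loads and uses small silencing RNA showed small values. Of 10 genes, 5 were called higher and 2 lower in PDGFR-β+ cells, or 4 and 4 with median-ratio scaling, and 2 higher in SMCs. The largest log2 value in size was 0.49 in PDGFR-β+ cells and 0.34 in SMCs. Ago4 rose by 0.47 in PDGFR-β+ cells (adjusted p = 0.028) and Ago2, the Argonaute that cuts its target, rose by 0.34 in SMCs (adjusted p = 0.028) and was at -0.21 in PDGFR-β+ cells, where it did not pass.

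**Figure D4:**
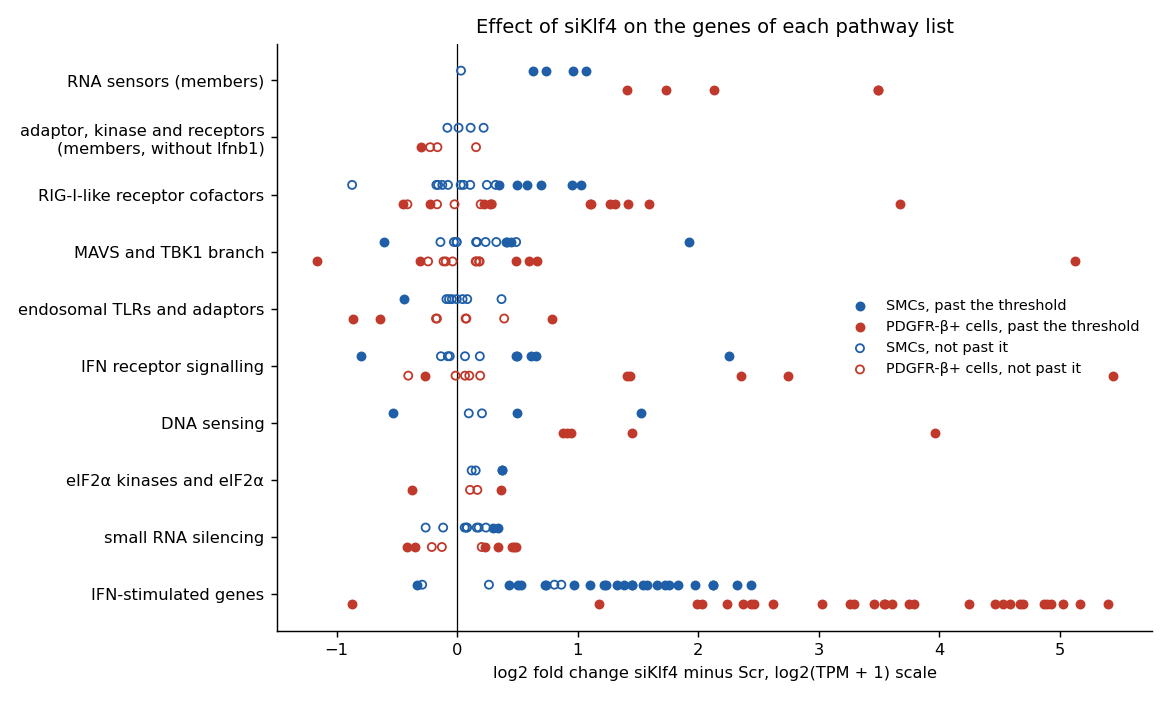
Log2 fold change siKlf4 minus Scr (x axis, log2(TPM + 1) scale) of each tested gene except Ifnb1 in 10 lists (y axis), in SMCs (blue) and PDGFR-β+ cells (red). Filled points passed an adjusted p under 0.05 and open points did not. The sensors, the interferon-stimulated genes and single genes of the other lists lie to the right, further so in PDGFR-β+ cells, while the adaptor, kinase and receptor members lie between -0.30 and 0.22.

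Among the interferon-stimulated genes, 29 of 30 were called higher and 1 lower in PDGFR-β+ cells, and 24 of 29 higher and 1 lower in SMCs, with medians of 3.58 and 1.32. The gene called lower was Ifi27 in the first (-0.88) and Isg20 in the second (-0.33), both named after their values were seen. With the replicate block 2 were lower in SMCs. In PDGFR-β+ cells Cmpk2, Mx1, Oas1a and Oas3 reached the minimum mean only through the siKlf4 group, as did Cxcl10 in SMCs, so their calls there follow from their passing. The effect was called larger in PDGFR-β+ cells for 28 of 29 genes, with a median difference of 2.45, where 18.5% of 13032 genes were. Among these calls, those of Cmpk2, Oas1a, Oas3 and Cxcl10 are affected by the same passing through 1 group and are only a description. The 4 largest differences were those of Cmpk2, Cxcl10, Mx2 and Rsad2, between 3.35 and 4.13. Cmpk2 had 0.680 to 1.36 TPM after Scr and 49.0 to 63.8 TPM after siKlf4 in PDGFR-β+ cells and 2.04 to 2.82 and 4.28 to 5.22 TPM in SMCs. The antiviral gene Rsad2 (viperin) stood at 0.622 to 2.52 and 58.5 to 68.1 TPM, and at 0.945 to 1.14 and 4.11 to 5.53 TPM. In bulk libraries more cells that express a gene and more RNA per cell cannot be told apart for any of these genes.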

How the data were processed

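Per the study's methods and the labels, the authors mapped quality-trimmed reads to mm10 by HISAT2, quantified GENCODE genes by StringTie, and deposited TPM for 52636 rows in 1 table per cell type. The members and lists were chosen with earlier results of these data known. The study tested counts with DESeq2, which were not used here. All per-library columns were used. The SMC table names 4 libraries by number and 1 of each group without one.

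Values were analysed as log2(TPM + 1) with limma 3.58.1 in R 4.3.3 (moderated test, mean-variance trend) for genes that averaged 1 TPM or more in the libraries compared, or in each cell type for the difference. All p-values are two-sided and adjusted over the genes tested by the Benjamini-Hochberg method, with a threshold of 0.05. The smallest two-sided exact permutation p for 3 libraries against 3 is 0.1. List genes were named by a rule: up to 4 per list with the largest change past the threshold in a comparison, further genes being given by values. One gene of the lists is counted but not reported by name here. Deviations from the group means correlated within same-numbered libraries at 0.0732, -0.0158 and 0.0043 in PDGFR-β+ cells, which were not taken as pairs. In SMCs the correlations were 0.1853 and 0.1985 for the numbered pairs and 0.3614 for the 2 libraries without a number, against -0.2172 to 0.0499 for other combinations, and a fit with these 3 pairs as a replicate block is given where it changes a call. That the libraries without a number form a pair rests on this correlation, not on the labels. The code was run on simulated data with independent noise and far fewer changed genes than were called here. That setting lacks the correlated pairs of the SMC libraries, so it does not show how the test behaves on these data. Positions come from GENCODE M21 and promoters from RefSeq. TPM keeps no depth, so precision rests on 3 libraries per group.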

Additional observations from a re-analysis of the deposited data

Results flagged for a closer look

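The effect of siKlf4 differed between PDGFR-β+ cells and SMCs, by limma's interaction term, for 29 named genes outside the members. The values of 6 members past the same threshold are given as a description. Values are effects in PDGFR-β+ cells minus effects in SMCs on the log2(TPM + 1) scale. Cell type and table cannot be told apart in them, and the members and lists were chosen with these effects known. Ddx60 and Cmpk2 reached the minimum mean in PDGFR-β+ cells only through the siKlf4 group, and Cxcl10 did so in SMCs. The differences of these genes are therefore given as a description too.

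Among the members the differences were 2.75 for Dhx58, 2.42 for Ifih1, 1.38 for Tlr3, 1.16 for Ddx58, 1.10 for Eif2ak2 and -0.38 for Ifnar1. Among the cofactors of the RIG-I-like receptors they were 2.65 for Ddx60, 1.98 for Rnf125, 1.77 for Rnf135, 0.92 for Zc3hav1 and 0.61 for Adar. In the branch from MAVS to TBK1 they were 3.21 for Irf7, 1.20 for Ikbke, -1.16 for Ikbkg, -0.69 for Chuk and 0.32 for Irf3. With the replicate block the differences of Ikbkg and Irf3 did not pass (adjusted p = 0.0527 and 0.0563).

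Among the endosomal genes they were 0.83 for Myd88, -0.77 for Unc93b1 and -0.57 for Cnpy3. Downstream of the interferon receptor they were 3.18 for Usp18 and 1.74 for Stat2. Among the genes of DNA sensing they were 2.44 for Zbp1, 1.41 for Samhd1 and 0.82 for Tmem173. The remaining differences were 0.73 for Ago4, -0.55 for Ago2 and -0.52 for Eif2ak3, and for the interferon-stimulated genes 4.13 for Cmpk2, 3.45 for Cxcl10, 3.42 for Mx2, 3.35 for Rsad2, 1.51 for Isg20 and -0.59 for Ifi27. Klf4, the silenced gene, differed by -1.19 and the smooth muscle gene Acta2 by -1.30.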

How the results depend on the processing

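Of the members' values under the alternatives, 558 kept their direction and side of the threshold, 14 passed it newly, 5 lost it and 17 changed sign. The cause of these changes was not tested.

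In PDGFR-β+ cells the members called lower were 1 as reported, 0 with no filter on low values, 3 with median-ratio scaling, 3 with quantile normalization and 0 to 1 with a library left out (0 without Scr 1, Scr 2, siKlf4 2 or siKlf4 3). For the difference between cell types they were 1 as reported, 2 with a minimum mean of 5 TPM, with median-ratio scaling or with quantile normalization, and 1 to 2 with a library left out (2 without PDGFR-β+ Scr 3). Over all genes in SMCs, 1157 to 2037 were called higher and 1044 to 1578 lower with a library left out, against 2136 and 1774. The counts moved by over 1.5 times without Scr 2 (1382 and 1157), siKlf4 2 (1157 and 1059) or siKlf4 3 (1298 and 1044). Ifnar1 in SMCs, not called as reported, was called with a minimum mean of 5 TPM (adjusted p = 0.0489) and in a single limma fit of both cell types (adjusted p = 0.0201).

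The sign changes were all in values that no setting called. In SMCs Tlr3 was at -0.12 with the numbered libraries alone, blocked or not, and -0.16 (without the siKlf4 library that carries no number) to 0.23 with a library left out. Mavs in SMCs was at -0.0011 with median-ratio scaling, -0.0328 with quantile normalization, -0.0097 with the numbered libraries, blocked or not, and -0.0277 (without the Scr library that carries no number) to 0.0418 with a library left out. The difference for Tbk1 was -0.0337 with median-ratio scaling and -0.0568 (without PDGFR-β+ Scr 2) to 0.0991 with a library left out. At baseline Tbk1 was at -0.0061 with quantile normalization, and -0.0454 (without PDGFR-β+ Scr 1) to 0.1071 with a library left out, and Eif2ak2 at -0.0414 (without PDGFR-β+ Scr 3) to 0.1947.

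With the replicate block over the numbered libraries, which leaves out 2 of the 6 SMC libraries, 6 members were called higher in PDGFR-β+ cells and 4 in SMCs, as without it, and 3486 and 1500 genes in all. A block in which the SMC libraries without a number also form a pair, chosen after seeing the data and run over all libraries, called 5 members and 2642 genes higher in SMCs, Ifnar1 being added, and for the difference between cell types 5 members higher and 2 lower, Mavs being added. It changed no other member's call. Among the genes of the lists it changed the calls in SMCs of Rnf125, Ddx3x, Ifi27, Pdgfrb, Pdgfra and Cspg4.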
